A study of Drosophila melanogaster with 17 samples.

Results

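Odorant binding proteins and chemosensory receptors were measured in whole adult brains of Drosophila melanogaster, as the 84 genes whose single platform symbol consists of Obp, Or, Gr or Ir, a number and a letter. They were taken from 8938 genes with 1 symbol in a table that the authors had filtered, which left out 5479 of 18769 probe sets. The current annotation of the fly genome gives such symbols to 49 Obp, 60 Or, 60 Gr and 66 Ir genes. Of these, 22 Obp, 25 Or, 22 Gr and 15 Ir genes were among the 84. Whether the others were missing from the array or only from the filtered table was not examined, so counts by family hold for genes in that table. A gene with several probe sets was represented by the probe set of highest mean signal over all arrays. The 17 Affymetrix arrays each held RNA from 4 brains of both sexes, and fell into 5 groups. C17 (3 arrays) was a line null for moody, which encodes a receptor on the glia that wrap the brain and seal it from the blood. PMdr65 (3 arrays) was a line null for Mdr65, whose product pumps foreign compounds out at that barrier. WT_new (3 arrays) and WT_old (5 arrays) were both Canton S wild type, and UAS_control (3 arrays) was a line carrying a UAS-Mdr65-RNAi construct, for which the labels name no driver. All were adults of unstated age without a stated treatment, kept at room temperature or at 16 °C. The design text of the series states that WT_new was handled on another day than the mutants, so that in a contrast of a mutant with WT_new the day and the genotype cannot be told apart, and that UAS_control is closer to the mutants in genetic background than the wild types are. Each null allele was represented by a single line, so the allele and the rest of that line's genome cannot be told apart. Nothing in the labels ties arrays of 1 group to different cultures, so p-values measure the spread between arrays, which may be technical.

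Flies smell and taste with neurons housed in sensory hairs of the antenna, maxillary palp, proboscis, legs and wings. Support cells at the base of these hairs secrete odorant binding proteins (Obp), small soluble carriers of the fluid around the sensory dendrites. The neurons carry odorant receptors (Or), which form ion channels with the coreceptor Orco, gustatory receptors (Gr) for sugars, bitter compounds and pheromones, and ionotropic receptors (Ir), relatives of glutamate receptors that work with coreceptors such as Ir93a. The cell bodies of these neurons lie in the appendages and their axons in the brain. A few family members are known from the brain itself, among them Gr43a, a fructose receptor of central neurons, and Obp44a, a binding protein of glia.

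On the log2 scale, moody had a signal of 2.17 ± 0.11 (SD, n = 3) in C17 and Mdr65 a signal of 4.69 ± 0.04 (SD, n = 3) in PMdr65, against 9.77 or more for moody and 9.80 or more for Mdr65 as means of the other groups. Array medians lay between 7.86 and 7.99, and arrays of a group correlated at 0.974 to 0.997 across probe sets. The median of 11 measured neuron markers lay between 12.18 and 12.52 on every array, and that of 11 glia markers between 9.93 and 10.81. Markers of neighbouring tissues did not stay level. The median of 9 eye markers was 10.55 on WT_new array 3 and 9.44, 10.39 and 10.16 on the UAS_control arrays, against 5.41 to 7.31 on the other arrays. The median of 13 muscle markers was 9.35 on UAS_control array 2, and 4.97 to 7.16 elsewhere. In WT_old the median of 8 fat body markers, 1 of which is the member Obp99b, lay between 7.14 and 8.90, against 10.61 to 12.13 in the other groups.

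Many chemosensory genes gave dim signals in the brain. A signal was marked as near background at or below 4.88, the 75th percentile of the mean signals of the 5479 probe sets that the authors left out of their filtered table. By group means, 29 of the 84 genes were near background in all 5 groups, 38 were above the limit in all 5, and 17 lay on both sides. By the mean over all arrays, 40 of the 84 genes were at or below the limit, beside 9.45% of all 8938 genes. The median of the mean signals was 4.93 for the 84 genes and 8.17 for all genes. Near background in every group were 13 of 22 Gr genes, 9 of 25 Or genes, 5 of 15 Ir genes and 2 of 22 Obp genes. Signals of different probe sets depend on the probes as well as on the RNA, so levels are read here against the background limit and between arrays, not from gene to gene. Where a group was near background on every array, a log2 difference from it is a difference of signals. A fold, where given, is then a lower bound, from the mean of the brighter group against the limit.

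The 9 Or genes above the limit in every group included Or45a, Or63a and Or45b, which are known as receptors of larval olfactory neurons, and Or43b and Or98a, receptors of adult antennal neurons. Or45a averaged 8.29 over all arrays, Or43b 7.96 and Or98a 5.66. The Or genes near background in all groups included Or56a, the receptor for the mould odour geosmin, whose signals ran from 3.12 to 4.08 over the 17 arrays. Of the taste receptors, 7 were above the limit in all groups, among them Gr43a with signals from 5.0 to 5.8 and Gr66a, a bitter receptor, with 4.76 to 5.75. Gr5a, the trehalose receptor, stayed between 3.51 and 4.02. Or56a, Gr66a and Gr5a lie outside the rule for named genes and were chosen after their values were seen. Gr47a (7.64 to 8.23), Gr39a (6.94 to 7.84), Gr68a (6.17 to 7.05) and Gr77a (5.21 to 6.22) were above the limit on every array. Gr39a and Gr68a are known for roles in male courtship.

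Among the ionotropic receptors, 9 were above the limit in all groups. These included Ir76a, an amine receptor of the antenna (7.72 to 9.12), Ir56a (7.38 to 8.51), Ir47a (6.18 to 7.24), Ir48c (6.72 to 7.32), the coreceptor Ir93a (5.85 to 6.81), which serves temperature and humidity sensing, and Ir68a, a receptor for moist air (5.76 to 6.70). The coreceptors Ir8a, Ir25a and Ir76b and the binding protein lush were not analysed here. Of the binding proteins, Obp44a had signals between 13.94 and 14.32 on all 17 arrays, Obp18a between 8.16 and 9.66 and Obp85a between 7.81 and 8.68. Just below the limit by their mean over all arrays were Or59c (4.77), Or22b (4.84) and Gr32a (4.87), and just above it Or71a (4.89), Gr28b (4.92) and Obp56h (4.94).

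**Figure D1:**
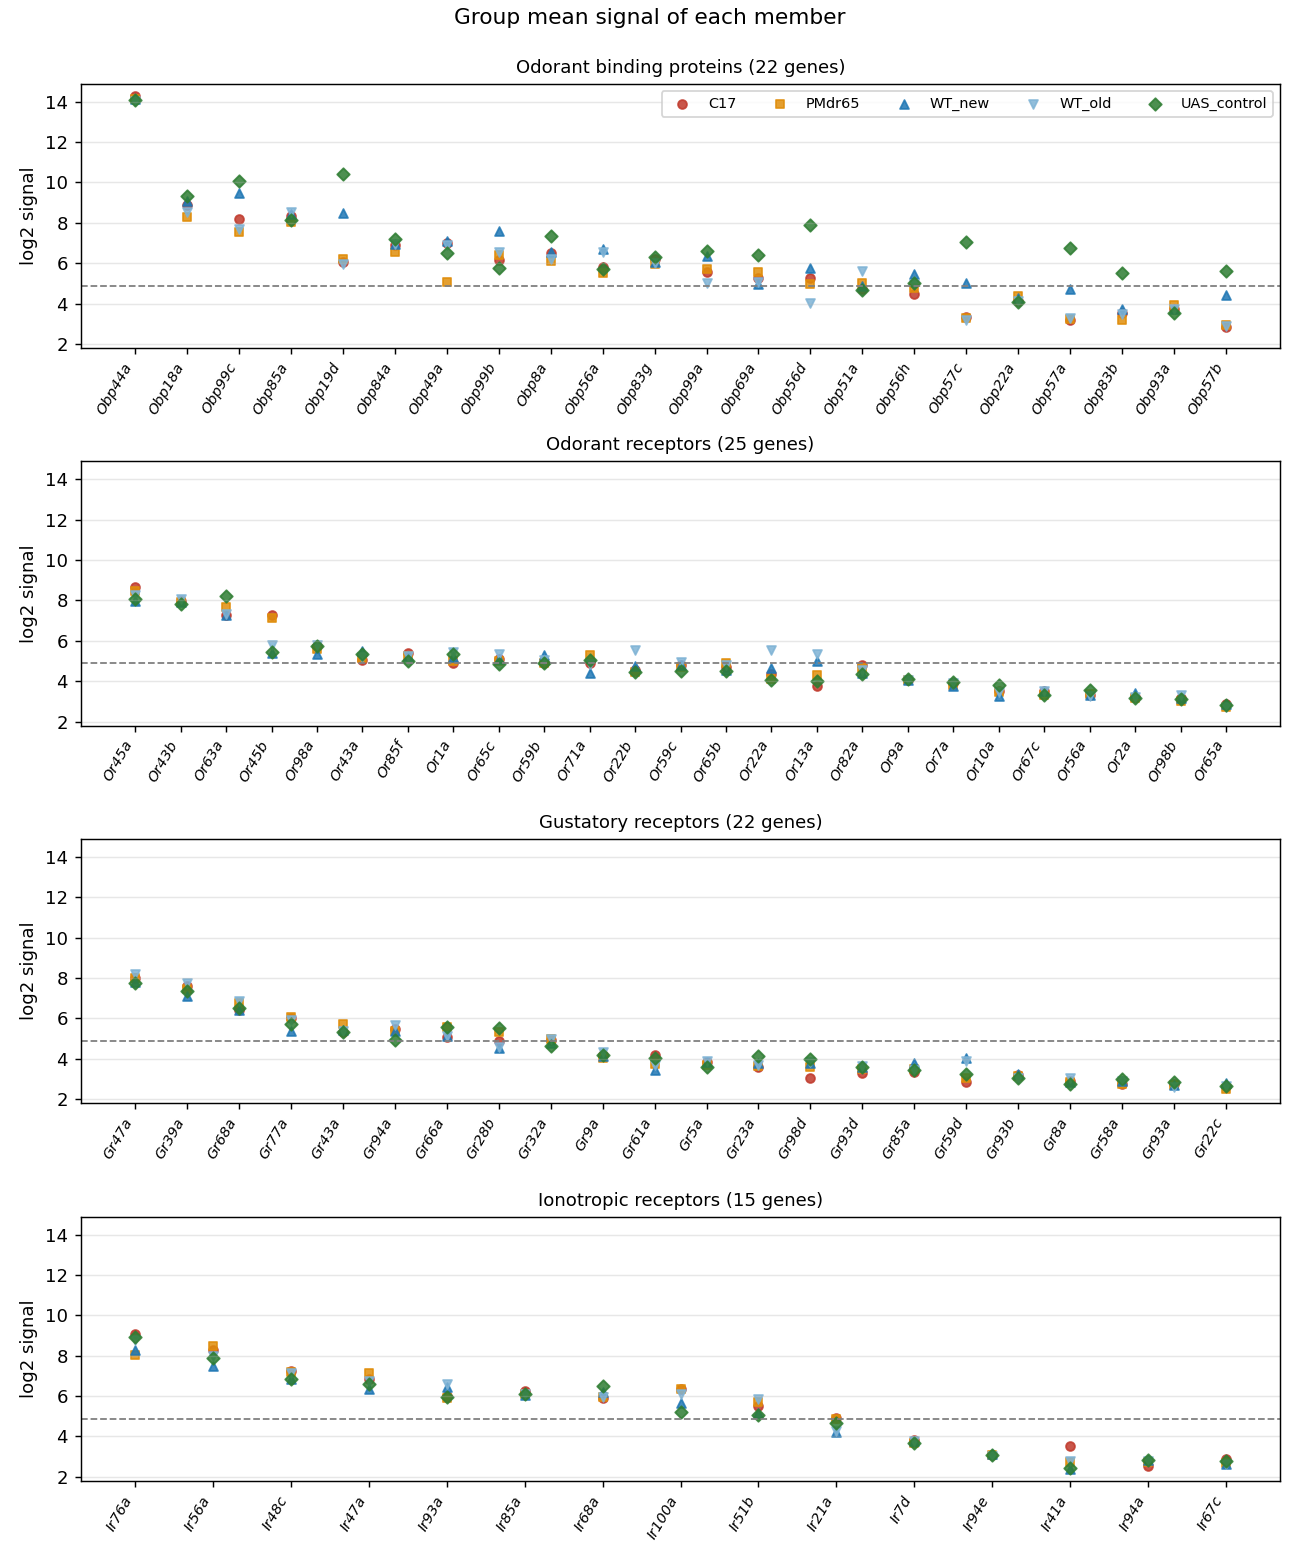
Mean log2 signal of each of the 84 genes (horizontal axis, ordered by mean within each family) in the 5 groups (coloured symbols), with the background limit of 4.88 as a dashed line. Most Gr genes lie below the line in all groups, and the widest gaps between groups are those of Obp genes in UAS_control.

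Whether loss of a barrier protein went with a change in chemosensory transcripts was read from each mutant against the 3 control groups. In C17, 5 members were higher than in all 3 control groups (Obp44a, Or45a, Or45b, Ir41a and Ir56a) and 3 were lower (Obp56h, Gr59d and Gr98d). Of all genes, 4.37% were called higher and 2.27% lower against all 3 groups in C17, so that 8 of 84 members, 9.52%, stood beside 6.65% of all genes. The count of 8 fell to 4 without C17 array 2 or 3 or WT_old array 2, and to 4 after further quantile normalization. In PMdr65, 3 members were higher (Or45b, Ir47a and Ir56a) and 1 was lower (Obp49a). The background for PMdr65 was 5.87% higher and 3.18% lower, and the members' share of 4.76% lay below the 9.05% of all genes. A call here is an adjusted p under 0.05 in limma in the same direction in the 3 contrasts, with adjustment over all probe sets. The mutants share their control arrays, so the values of both are given side by side.

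Or45b, a receptor known from larval olfactory neurons, was the odorant receptor with the widest change. Its signals were 7.37, 7.19 and 7.34 in C17 and 7.34, 6.97 and 7.10 in PMdr65. The wild types gave 5.42, 5.63 and 5.17 in WT_new and 5.77, 6.0, 5.87, 5.74 and 5.57 in WT_old, and UAS_control gave 4.94, 5.71 and 5.71. All 6 mutant arrays thus lay above all 11 control arrays, the highest control array standing at 6.0 and the lowest mutant array at 6.97. The change in C17 was 1.89 ± 0.18 (SE) against WT_new, 1.51 ± 0.16 against WT_old and 1.85 ± 0.18 against UAS_control, a 2.84 to 3.71-fold higher signal, with a highest adjusted p of 9.3e-06. In PMdr65 it was 1.73 ± 0.18, 1.35 ± 0.16 and 1.69 ± 0.18 in the same order, 2.55 to 3.32-fold, with a highest adjusted p of 2.0e-05. Both calls were kept when any of the 17 arrays was left out. Between the mutants Or45b differed by 0.16 ± 0.18, with an adjusted p of 0.77.

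Or45a, on the same chromosome arm (2R) and also known as a larval receptor, moved by less. C17 had 8.69, 8.57 and 8.68, PMdr65 8.52, 8.41 and 8.45, WT_new 8.15, 7.88 and 7.90, WT_old 8.22, 8.32, 8.30, 8.13 and 8.39, and UAS_control 8.01, 8.03 and 8.22. The arrays of both mutants again lay above all control arrays, although the gap between the lowest PMdr65 and the highest WT_old array was small. In C17 the change ran from 0.38 to 0.67, with a highest adjusted p of 0.0030, and was called without any single array. In PMdr65 it ran from 0.19 to 0.48 and missed the threshold against WT_old with an adjusted p of 0.079. The probe set of Or45a is of a type (suffix a) that can match several transcripts of a gene.

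Obp49a fell in PMdr65. This binding protein is secreted around taste neurons, where it is known to let bitter compounds suppress sweet taste. Its signals in PMdr65 were 5.07, 5.02 and 5.16, just above the background limit. C17 had 7.14, 7.01 and 6.82, WT_new 7.29, 7.02 and 7.03, WT_old 7.32, 7.02, 6.78, 6.96 and 6.53, and UAS_control 6.44, 6.45 and 6.68. The PMdr65 arrays were the lowest 3 of all 17 and did not overlap with any other group. PMdr65 was lower by 2.03 ± 0.15 against WT_new, 1.84 ± 0.14 against WT_old and 1.44 ± 0.15 against UAS_control in the magnitude of the log2 change, which is 2.71 to 4.08-fold, with a highest adjusted p of 9.5e-06. This call too was kept without any single array. UAS_control was also lower than both wild types, by 0.59 ± 0.15 and 0.40 ± 0.14, calls that were lost without UAS_control array 2, the former also without WT_new array 1 and the latter without UAS_control array 1, with adjusted p of up to 0.082.

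Ir56a, an ionotropic receptor, was higher in both mutants. Its 3 PMdr65 signals were 8.50, 8.51 and 8.47 and its 3 C17 signals 8.26, 8.37 and 8.19. WT_new had 7.55, 7.59 and 7.38, WT_old 7.92, 7.90, 8.01, 7.99 and 8.08, and UAS_control 8.15, 7.80 and 7.71. The mutant arrays lay above all control arrays, with 1 UAS_control array at 8.15 next to the lowest C17 array. The change in PMdr65 ran from 0.51 to 0.99, with a highest adjusted p of 5.3e-04, and was kept without any single array. In C17 it ran from 0.29 to 0.77, and the call against WT_old was lost without C17 array 1 or 2 or without WT_old array 1 or 2, with adjusted p of up to 0.14. It was lost too with array medians centred (adjusted p of 0.054) and after further quantile normalization (0.051), and the call against UAS_control with only the groups compared (0.058). Ir47a was higher in PMdr65 by 0.35 to 0.80, with signals of 7.24, 6.94 and 7.18 against 6.18 to 6.97 on the control arrays, so that 1 UAS_control array overlapped. That call was lost without PMdr65 array 1 or 3 or without WT_old array 1 or 3, with adjusted p of up to 0.14. It was also lost with replicate number as a block and with only the groups compared.

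Obp44a, bright on every array, was higher in C17 by a small step. C17 had 14.28, 14.31 and 14.32, PMdr65 14.09, 14.14 and 14.15, WT_new 14.18, 14.14 and 14.10, WT_old 13.94, 14.05, 14.09, 14.07 and 13.95, and UAS_control 14.17, 14.07 and 14.05. The C17 arrays did not overlap with the others, and the change ran from 0.16 to 0.28, 1.12 to 1.22-fold. The call was lost without any of the C17 arrays or without WT_new array 2 or 3, with adjusted p of up to 0.10. After further quantile normalization the change was 0.03 to 0.06 and passed the threshold against none of the 3 groups, with adjusted p of up to 0.70, and with array medians centred it was 0.13 to 0.28, with adjusted p of up to 0.18. It was also lost with only the groups compared and in the unfiltered table, with adjusted p of 0.065 and 0.057. The remaining C17 calls concerned dim genes. Obp56h was lower by 0.49 to 0.99. Against the limit, the means of WT_old, UAS_control and WT_new were at least 1.07-fold, 1.10-fold and 1.50-fold higher than C17. Only 3 of the 5 WT_old arrays of Obp56h were above the limit. Its call was lost in 13 of the 17 fits that left out an array, with adjusted p of up to 0.22. These were the fits without C17 array 2 or 3, PMdr65 array 2, any UAS_control or WT_new array, or WT_old arrays 1 to 4. The call against WT_old was also lost in the unfiltered table and with replicate number as a block, and that against UAS_control with arrays weighted.

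Ir41a, a polyamine receptor of the antenna, Gr98d and Gr59d, a receptor of bitter neurons, were near background in every group, so their changes are differences between dim signals and no fold is given. Ir41a had 3.58, 2.81 and 4.16 in C17 and 2.29 to 2.96 on the control arrays, which overlap with the middle C17 array. Its call, of 0.72 to 1.12, was lost without C17 array 1 or 3 or WT_old array 2, 3, 4 or 5, with adjusted p of up to 0.22. It was also lost after further quantile normalization, with only the groups compared and with replicate number as a block. Gr98d had 2.90, 3.08 and 3.13 in C17 and 3.40 to 4.42 on the control arrays, without overlap, and was lower by 0.78 to 0.96. That call was lost without WT_new array 1, with an adjusted p of 0.054, and with replicate number as a block. Gr59d was lower in C17 by 1.18 and 1.03 against the wild types but by 0.38 ± 0.14 against UAS_control. The last of these was lost in 8 of the 17 fits, those without C17 array 2 or 3, PMdr65 array 1 or 3, UAS_control array 1 or 2, WT_new array 1 or WT_old array 2, with adjusted p of up to 0.14. It was also lost with arrays weighted, after further quantile normalization, with a trended and robust prior and in the unfiltered table.

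**Figure D2:**
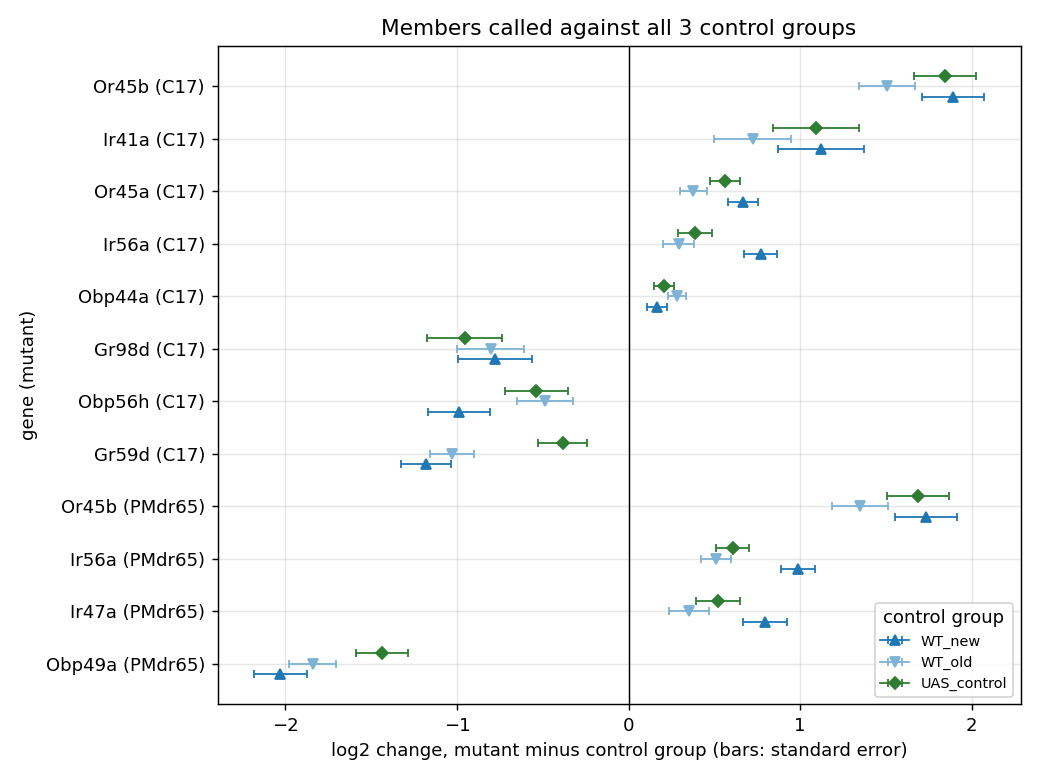
Log2 change of each mutant against each control group (horizontal axis, error bars: standard error from limma) for the 12 gene and mutant pairs called against all 3 control groups. Or45b stands at 1.35 to 1.89 in both mutants, Obp49a at -2.03 to -1.44 in PMdr65, and Gr59d in C17 is closer to 0 against UAS_control than against the wild types.

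The mutants were also compared with each other, a contrast that uses none of the control arrays for its means. Of the members, 3 were called, all higher in C17 (3.57% of 84), against a background of 6.95% of all genes, 3.71% higher and 3.23% lower. Obp49a was higher in C17 by 1.90 ± 0.15 with an adjusted p of 7.4e-07. Ir76a was higher by 1.06 ± 0.14 with an adjusted p of 1.5e-04. Its signals were 9.04, 9.12 and 9.05 in C17, 8.02, 7.72 and 8.30 in PMdr65, 8.56, 8.27 and 8.02 in WT_new, 8.86, 8.73, 8.85, 8.58 and 8.80 in WT_old, and 8.85, 8.85 and 9.03 in UAS_control. PMdr65 thus overlapped with WT_new and lay below the other groups, and it was lower by 0.75 ± 0.12 than WT_old and by 0.90 ± 0.14 than UAS_control. Against WT_new it was lower by 0.27 ± 0.14, with an adjusted p of 0.14. Its probe set is of a type (suffix s) that can match transcripts of several genes. Obp85a was higher in C17 by 0.32 ± 0.09, and this call was lost in 10 of the 17 fits that left out an array, those without any C17 array, PMdr65 array 1 or 3, UAS_control array 3, WT_new array 2, or WT_old array 2, 3 or 5, with adjusted p of up to 0.21. The number of members called rose to 18 when arrays were weighted and to 13 when only the mutants entered the fit, where 17.3% and 12.4% of all genes were called.

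The control groups differed among themselves for many of these genes. Between the wild types, 15 members were higher and 9 lower in WT_old than in WT_new, and the 24 calls (28.6% of members) stood beside 45.0% of all genes, 24.1% higher and 21.0% lower. UAS_control had 10 members higher and 7 lower than WT_new (20.2% of members), beside 14.8% of all genes, 8.41% higher and 6.40% lower. It had 19 members higher and 20 lower than WT_old (46.4%), beside 54.6% of all genes, 27.3% in each direction. In the single contrasts of the mutants the members' share was below that of all genes, except in C17 against WT_old (20.2% of members). C17 had 14 members higher and 11 lower than WT_new, beside 24.1% and 17.9% of all genes (42.0% in either direction). Against WT_old it had 7 higher and 10 lower, beside 11.6% and 8.03% (19.7%), and against UAS_control 12 higher and 18 lower, beside 23.2% and 20.4% (43.5%). PMdr65 had 13 members higher and 15 lower than WT_new, beside 23.6% and 19.6% of all genes (43.2%). Against WT_old it had 8 higher and 10 lower, beside 15.3% and 13.2% (28.5%), and against UAS_control 11 higher and 14 lower, beside 21.1% and 20% (41.1%).

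**Figure D3:**
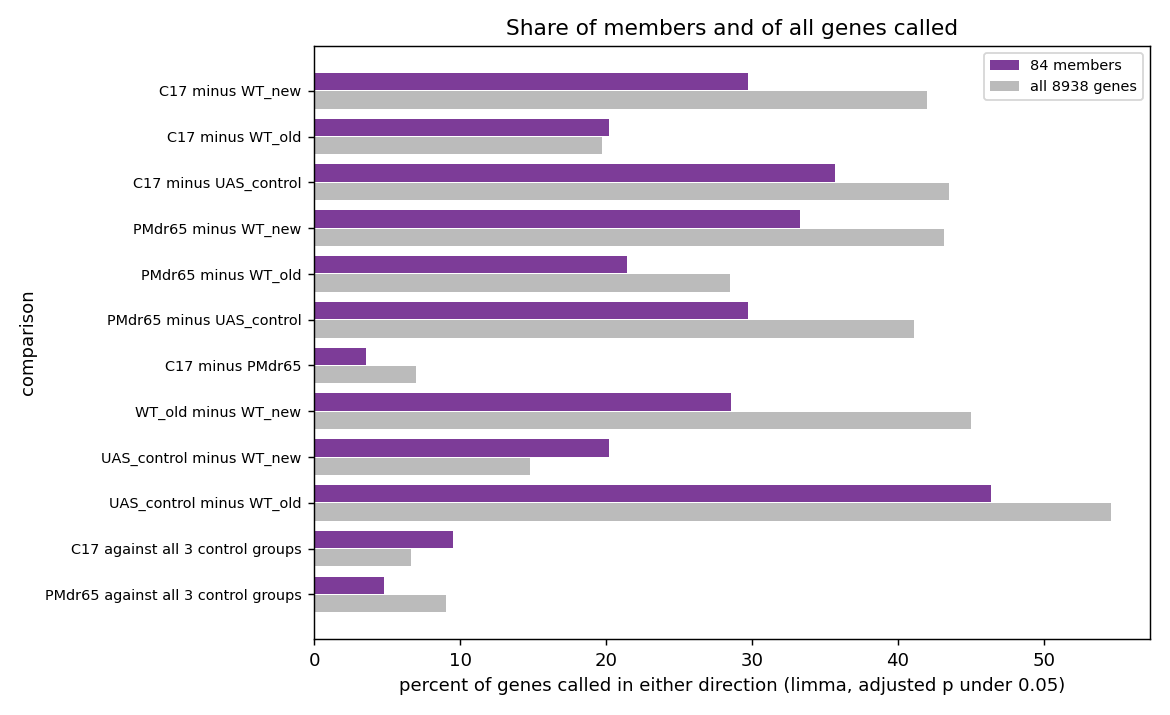
Percent of the 84 genes (purple bars) and of all 8938 genes (grey bars) called in either direction by limma at an adjusted p under 0.05, for the 10 contrasts and for calls against all 3 control groups. The members' share is below that of all genes in most comparisons, and above it in UAS_control minus WT_new (20.2% against 14.8%), in C17 against all 3 control groups (9.52% against 6.65%, from a count of 8 that is 4 without single arrays) and, by a small margin, in C17 minus WT_old.

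Or13a, Gr59d, Obp56a and Ir93a were lower in the mutants and in UAS_control than in both wild types. They were grouped after their values were seen. The share of all genes with this pattern is not given here, so the number of members with it is not read as a result. Or13a, the antennal receptor for the mushroom alcohol 1-octen-3-ol, had 4.99, 4.89 and 5.15 in WT_new and 5.68, 5.63, 5.19, 5.45 and 4.84 in WT_old. The 3 other groups gave 3.52, 3.93 and 3.83 in C17, 4.10, 4.29 and 4.5 in PMdr65, and 3.72, 4.27 and 4.00 in UAS_control, all near background and below every wild type array. C17 was lower by 1.25 ± 0.20 than WT_new and by 1.6 ± 0.18 than WT_old, PMdr65 by 0.71 ± 0.20 and 1.06 ± 0.18, and UAS_control by 1.01 ± 0.20 and 1.36 ± 0.18. Against the limit, Or13a was at least 1.10-fold higher in WT_new and 1.39-fold higher in WT_old than in these groups, with 4 of the 5 WT_old arrays above the limit. These 6 contrasts passed the threshold without any single array. Between the mutants and UAS_control the changes of Or13a were -0.24 ± 0.20 for C17 and 0.30 ± 0.20 for PMdr65, with adjusted p of 0.35 and 0.25.

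Gr59d, near background in every group, also separated the wild types from the 3 other groups. Both wild types lay between 3.54 and 4.29, and the mutants and UAS_control between 2.73 and 3.39. UAS_control was lower than WT_new by 0.80 ± 0.14 and than WT_old by 0.64 ± 0.13. Obp56a, with 6.18 to 6.92 in the wild types and 5.34 to 6.16 in the 3 other groups, was lower by 0.74 to 1.17 in these 6 contrasts. One of them, C17 against WT_old, was lost without C17 array 3, with an adjusted p of 0.073. The coreceptor Ir93a had 6.27 to 6.81 in the wild types and 5.85 to 6.12 in the mutants and UAS_control, again without overlap. It was lower by 0.45 to 0.66, and the call was lost in C17 against WT_new without WT_new array 1 and in UAS_control against WT_new without UAS_control array 3 or WT_new array 1, with adjusted p of up to 0.099.

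Or22a and Or22b, adjacent genes on chromosome arm 2L whose receptors detect fruit esters in the same antennal neuron, were highest in WT_old. Or22a had 5.72, 5.28, 5.82, 5.32 and 5.59 in WT_old and 4.81, 4.59 and 4.51 in WT_new. In the 3 other groups it lay between 3.76 and 4.41, near background. Or22b had 5.48, 5.63, 5.64, 5.68 and 5.30 in WT_old and 4.21 to 4.94 on the other 12 arrays. No WT_old array overlapped with another group in either gene. WT_old was higher than WT_new by 0.91 ± 0.14 for Or22a and by 0.82 ± 0.15 for Or22b, with adjusted p of 1.5e-04 and 6.2e-04. Against the mutants and UAS_control the differences were 1.19 to 1.5 for Or22a and 0.98 to 1.10 for Or22b, and WT_old was at least 1.59-fold higher than these groups in both. All 8 calls were kept without any single array.

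In other receptors UAS_control stood apart from some or all groups. Or63a, named above, had 8.20, 8.01 and 8.48 in UAS_control and 6.96 to 7.74 on all other arrays. UAS_control was higher by 0.96 ± 0.14 than WT_new, by 0.88 ± 0.12 than WT_old, by 0.96 ± 0.14 than C17 and by 0.58 ± 0.14 than PMdr65. Gr28b, known for sensing warmth, was high in both UAS_control (5.60, 5.60 and 5.36) and PMdr65 (5.23, 5.34 and 5.45), against 4.19 to 4.80 in the wild types and 4.80, 4.98 and 4.89 in C17. PMdr65 was higher than WT_new by 0.81 ± 0.14 and than WT_old by 0.76 ± 0.13, and UAS_control by 0.99 ± 0.14 and 0.94 ± 0.13. Against the limit, PMdr65 was at least 1.38-fold and UAS_control at least 1.56-fold higher than the wild types. Ir100a was lower in UAS_control (4.79, 5.47 and 5.33) than in C17 (6.05, 6.68 and 6.27) and PMdr65 (6.25, 6.5 and 6.29), by 1.14 ± 0.25 and 1.15 ± 0.25. It was also lower in UAS_control than in WT_old by 0.91 ± 0.23, and against WT_new (6.26, 5.64 and 5.07), whose arrays overlap, the change of -0.46 ± 0.25 had an adjusted p of 0.25. Ir21a, a receptor of cool-sensing neurons, was higher in C17 than in WT_new by 0.73 ± 0.14 and than in WT_old by 0.68 ± 0.13, and in PMdr65 by 0.66 ± 0.14 and 0.62 ± 0.13, from signals of 3.88 to 4.46 near background in the wild types. Against the limit, the C17 mean was at least 1.04-fold higher than the wild types, but only 2 of the 3 C17 arrays were above the limit. UAS_control (4.49, 4.72 and 4.85) was also higher, by 0.48 ± 0.14 than WT_new and by 0.43 ± 0.13 than WT_old, the former lost without UAS_control array 2 or 3 or WT_new array 1 or 3 and the latter without UAS_control array 3, with adjusted p of up to 0.15. Against UAS_control the changes of Ir21a were 0.25 in C17 and 0.18 in PMdr65, with adjusted p of 0.17 and 0.33.

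**Figure D4:**
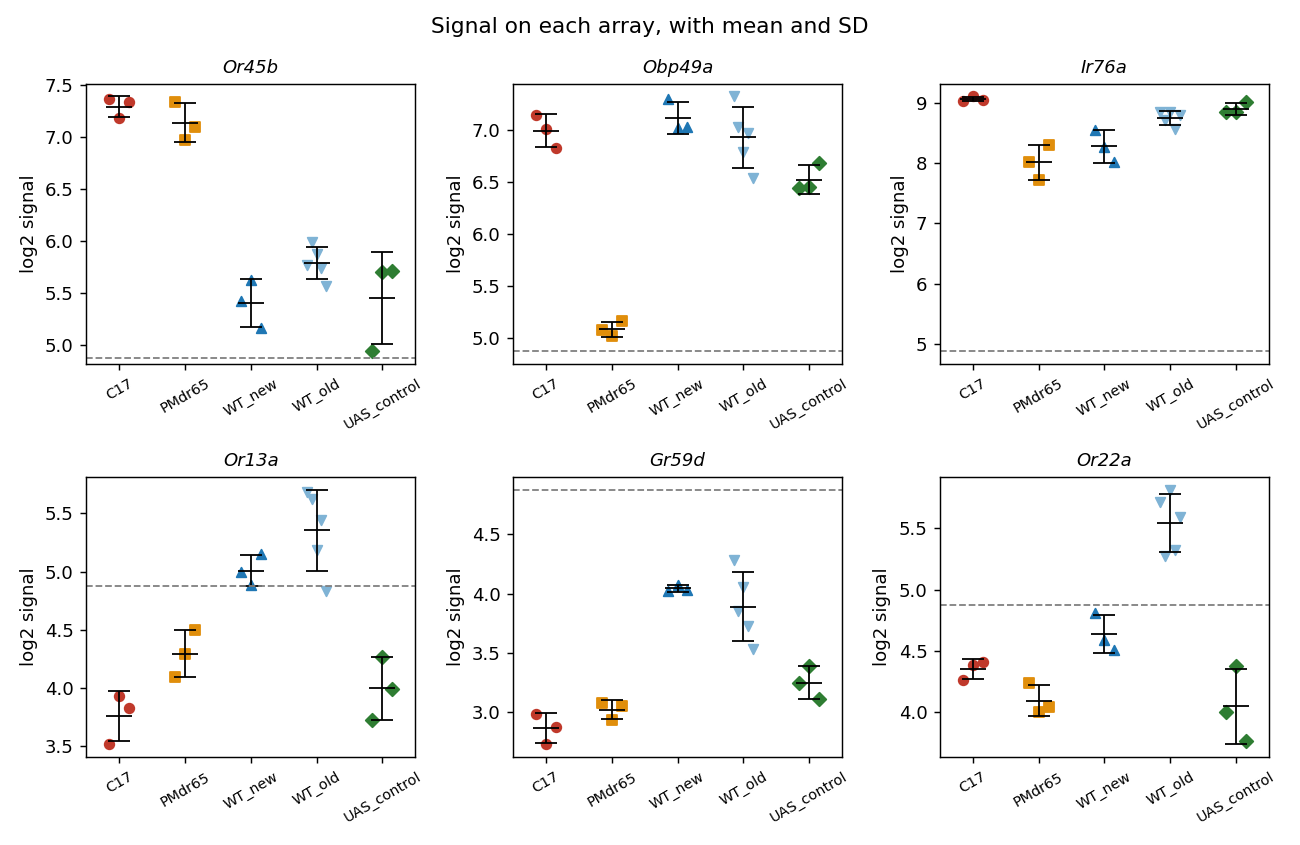
Log2 signal of Or45b, Obp49a, Ir76a, Or13a, Gr59d and Or22a on each array by group, with mean and SD as black bars and the background limit of 4.88 as a dashed line. Both mutants lie above the controls for Or45b, PMdr65 lies lowest for Obp49a, the wild types lie high for Or13a and Gr59d, and WT_old lies high for Or22a.

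Most binding proteins called between WT_old and the other control groups were lower in WT_old. Against WT_old, 11 of 22 Obp genes were higher in UAS_control and 4 were lower, beside 27.3% of all genes in each direction, with a median change of 0.57 over the 22 genes and -0.01 over all genes. WT_old minus WT_new gave 1 higher and 8 lower Obp genes, beside 24.1% and 21.0% of all genes, and the median change was -0.31. Of the 22 genes, 9 were thus called, beside 45.0% of all genes. The medians of the Or, Gr and Ir genes in WT_old minus WT_new were 0.16, 0.04 and 0.14. Of the 22 Obp genes, 13 had their highest group mean in UAS_control, and 9 had their highest single value on UAS_control array 2. The shares of all genes highest in that group or on that array are not given here, so these counts have no background.

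Obp19d, an abundant binding protein of olfactory and taste hairs, spanned the widest range. It had 10.22, 12.19 and 8.87 in UAS_control and 7.73, 7.40 and 10.39 in WT_new. On the 11 arrays of C17, PMdr65 and WT_old it lay between 5.71 and 6.51, below all arrays of the other groups. UAS_control was higher than WT_old by 4.46 ± 0.64, with an adjusted p of 4.6e-05, and WT_old was lower than WT_new by 2.53 ± 0.64 in magnitude, with an adjusted p of 0.0051. Without WT_new array 3 and UAS_control array 2 together these changes were 3.57 and -1.59, and both were still called. Against WT_new the mutants were lower by 2.46 ± 0.72 in C17 and by 2.29 ± 0.72 in PMdr65, calls that were lost without WT_new array 3, and in PMdr65 also without PMdr65 array 1, with adjusted p of up to 0.096. Its probe set has the suffix s.

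Obp57a, Obp57b and Obp57c, adjacent genes on chromosome arm 2R whose proteins belong to taste hairs, had their highest signals on WT_new array 3 and in UAS_control. Obp57c had 6.53, 8.78 and 5.84 in UAS_control and 3.97, 3.92 and 7.22 in WT_new, and stayed between 3.07 and 3.44 in C17, PMdr65 and WT_old. Obp57a had 6.36, 7.84 and 6.05 in UAS_control and 3.74, 4.09 and 6.32 in WT_new. Obp57b had 4.49, 7.72 and 4.61 and 3.73, 3.35 and 6.23 in the same groups, so that it passed the limit on 1 of 3 UAS_control arrays. In C17, PMdr65 and WT_old these genes were near background on every array. UAS_control was higher than WT_old by 3.85 ± 0.66 for Obp57c, 3.48 ± 0.47 for Obp57a and 2.71 ± 0.65 for Obp57b, and by 2.98, 2.94 and 1.65 without the 2 arrays. With all arrays, the UAS_control means were at least 4.52-fold, 3.67-fold and 1.66-fold higher against the limit. Without UAS_control array 2, Obp57b was below the limit in UAS_control (4.49 and 4.61), so no bound holds for it there. WT_old minus WT_new was -1.45 for Obp57a and -1.83 for Obp57c. Both calls were lost without WT_new array 3 alone, with adjusted p of 0.15 and 0.26, and that of Obp57c also without WT_old array 1, 3 or 5. Without the 2 arrays together the changes were -0.65 and -0.74, and both passed the threshold.

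Obp56d and Obp99c shared part of this pattern. Obp56d had 9.68, 9.23 and 4.81 in UAS_control and 4.42, 5.45 and 7.35 in WT_new, against 3.85 to 5.93 in the 3 other groups, so that UAS_control array 3 overlapped with the mutants. UAS_control was higher than WT_old, which was near background on every array, by 3.90 ± 0.86. By the group mean this is at least 8.18-fold, but only 2 of the 3 UAS_control arrays were above the limit. Obp99c had 8.34, 11.87 and 10.03 in UAS_control, 9.05, 8.92 and 10.52 in WT_new, and 7.40 to 8.46 elsewhere. UAS_control was higher than WT_old by 2.40 ± 0.54, and by 1.51 without the 2 arrays. The antennal binding proteins Obp83b, Obp69a and Obp84a were high on UAS_control array 2 alone. Obp83b was 8.58 there and 2.99 to 4.03, near background, on the other 16 arrays. Obp69a was 8.65 there and 4.60 to 5.90 on the others, and Obp84a was 8.82 there and 6.30 to 7.19 on the others. Obp69a and Obp84a were picked after their values were seen. UAS_control minus WT_old was 2.05 ± 0.72 for Obp83b, at least 1.56-fold. Without the 2 arrays it was 0.52, between signals that are all near background.

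Part of these signals moved with markers of other head tissues. Obp19d, Obp57a and Obp57c were high where the eye markers were, Obp56d was not on UAS_control array 3, and Obp83b, Obp69a and Obp84a were high on UAS_control array 2 and not on the other arrays with high eye markers. On WT_new array 3 the phototransduction gene trp was 10.55, and 9.06, 10.71 and 10.16 on the UAS_control arrays, against 6.41 to 7.51 on the other 13. The arrestin gene Arr1 was 11.23 and 9.99, 11.18 and 10.93 on the same arrays. Of the 9 eye markers, 7 were higher and 1 lower in UAS_control than in WT_old, and of the 13 muscle markers 10 were higher. Orco, the odorant receptor coreceptor, was 5.82 on UAS_control array 2 and 4.47 to 5.39 on the others, and Snmp1, a membrane protein of pheromone-sensing neurons, was 7.58 there and 6.59 to 7.17 elsewhere. The median of 7 measured antenna markers, which include Obp19d, Obp83b, Obp69a and Obp84a, was 8.58 there and 4.96 to 5.90 on the other arrays. The antennal receptors Or22a (4.38), Or13a (4.27), Or43b (7.78) and Ir76a (8.85) were not at their highest there. Within UAS_control, however, Or22a and Or13a were higher on array 2 than on array 1 (4.00 and 3.72) or array 3 (3.76 and 4.00). Of the 25 Or genes, 3 had their highest signal on UAS_control array 2 (Or10a, Or56a and Or9a), and of the Gr and Ir genes none. The share of all genes highest on that array is not given here. The part of these tissues in the Obp signals was not tested, and fewer cells of a type and less RNA per cell cannot be told apart in whole brains. With WT_new array 3 and UAS_control array 2 left out, 10 Obp genes were higher and 4 lower in UAS_control than in WT_old, and 8 were lower in WT_old than in WT_new. Over the fits that left out a single array, the latter count ran from 3 to 10. Without the 2 arrays, 6 members were called against all 3 control groups in C17, 5 of them among the 8 above (Obp44a, Obp56h and Gr59d were not), and 6 in PMdr65, the 4 above included. The shares of all genes called in these refits are not given here, so their counts are not set against a background.

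**Figure D5:**
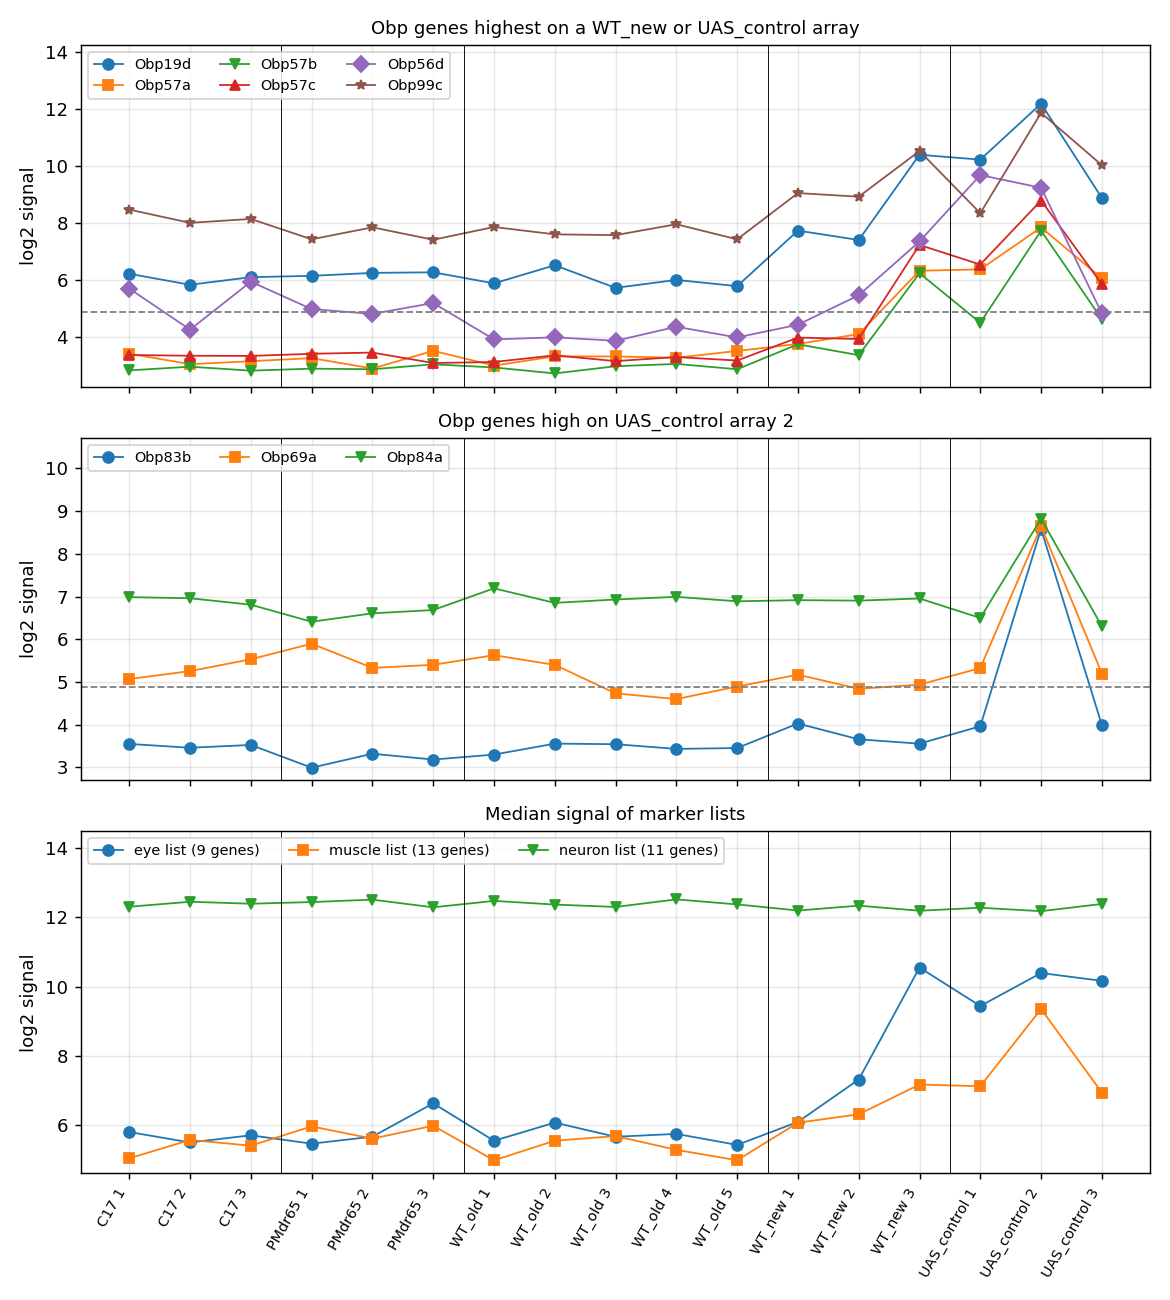
Log2 signal of 6 Obp genes (top) and 3 Obp genes (middle) on the 17 arrays (horizontal axis, groups separated by vertical lines), with the background limit of 4.88 dashed, and the median signal of 3 marker lists (bottom). Obp19d and the Obp57 genes are highest on WT_new array 3 and the UAS_control arrays, where the eye list is also high, and Obp83b, Obp69a and Obp84a peak on UAS_control array 2, where the muscle list reaches 9.35.

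Binding proteins with other patterns were also seen. Obp8a, known from seminal fluid, was higher in UAS_control (7.20, 7.31 and 7.45) than on all other arrays (6.02 to 6.86), by 0.78 ± 0.12 over WT_new and 1.11 ± 0.11 over WT_old. Obp51a, known from the same fluid, was highest in WT_old, with 5.46, 5.85, 5.5, 5.31 and 5.86 against 4.42 to 5.11 on the other arrays. WT_old was higher than WT_new by 0.72 ± 0.14 for that gene. Obp99b, a binding protein of the fat body that is male-biased, reached 9.27 on WT_new array 3 and 8.21 on WT_old array 4, and was 5.03 to 7.27 on the other 15 arrays. Obp18a was higher in UAS_control than in WT_old by 0.81 ± 0.15 and lower in PMdr65 than in UAS_control by 1.05 ± 0.17. Obp8a, Obp51a and Obp99b were chosen after their values were seen.

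Partner genes of the chemosensory pathways were read from a list of 34, of which 14 were measured. The 14 include Obp83ef, a binding protein that the naming rule leaves out. Of these, 5 were higher in each mutant than in WT_new, beside 24.1% of all genes in C17 and 23.6% in PMdr65. Against WT_old, 1 was higher and 2 were lower in C17, beside 11.6% and 8.03% of all genes, and 1 was higher and 3 were lower in PMdr65, beside 15.3% and 13.2%. Against UAS_control, 2 were higher and 1 was lower in C17, beside 43.5% of all genes in either direction. In PMdr65, 3 were higher and 2 lower than in UAS_control, beside 41.1% of all genes. In PMdr65 against all 3 control groups 1 of the 14 was higher, beside 5.87% of all genes, so this count is not read as above the background. The 1 partner called against all 3 control groups was ppk29, a sodium channel subunit of pheromone-sensing taste neurons, in PMdr65. It was higher there by 1.18 against WT_new, 1.24 against WT_old and 0.37 against UAS_control, with a highest adjusted p of 0.031. In C17 it was higher by 0.63 than WT_new and by 0.69 than WT_old, while its change of -0.18 against UAS_control had an adjusted p of 0.26. Orco passed the threshold in none of the 10 contrasts, at group means of 4.66 to 5.21, and its lowest adjusted p was 0.060. acj6 and pdm3, transcription factors that set receptor choice and are also made in central neurons, were higher by 0.65 and 0.50 in WT_old than in WT_new. In C17 and PMdr65, pdm3 was higher by 0.59 and 0.56 than in WT_new and by 0.36 and 0.33 than in UAS_control. Against WT_old it was called in neither mutant.

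The members lie on 5 chromosome arms, with 25 on 2R, 23 on 3R, 14 on 3L, 13 on X and 9 on 2L. Or65a, Or65b and Or65c, adjacent genes for receptors of pheromone-sensing neurons, lie 8 to 10 genes from Mdr65 on 3L in the Release 6 annotation, and passed the threshold against all 3 control groups in neither mutant. Their signals were 2.61 to 3.06 for Or65a, 4.34 to 5.16 for Or65b and 4.73 to 5.57 for Or65c over the 17 arrays. The member nearest to moody was Or2a, with 44 genes between them and signals of 2.90 to 3.62. Gr39a and Gr23a were the members with more than 1 probe set. The 5 probe sets of Gr39a were all higher in WT_old than in WT_new, by 0.42 to 0.64. Of the 2 probe sets of Gr23a, 1 was lower in C17 than in UAS_control and the other lower in both mutants than in WT_new.

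The remaining members are given by their ranges. Gr22c, Gr58a, Gr8a and Gr93a stayed between 2.44 and 3.25 on all 17 arrays, and Gr93b, Gr93d and Gr85a between 2.78 and 4.03. Gr94a, above the limit in every group, was lower in UAS_control (4.78, 5.06 and 5.02) than on all other arrays (5.28 to 6.03). Among the odorant receptors, Or10a, Or67c, Or98b, Or7a and Or9a stayed between 2.92 and 4.31, and Or85f, Or59b and Or1a between 4.73 and 5.64. Or43a, a receptor of antennal neurons, was higher in WT_new (5.52, 5.47 and 5.47) than in C17 (5.13, 5.14 and 4.94), PMdr65 (5.09, 5.24 and 5.15) and WT_old (5.09 to 5.32), and was called in these 3 contrasts. Among the ionotropic receptors, Ir67c, Ir94a and Ir94e stayed between 2.41 and 3.30, Ir7d between 3.50 and 3.97, and Ir85a between 5.76 and 6.46. Ir51b was higher in WT_old (6.37, 6.01, 5.68, 5.46 and 5.86) than in WT_new (5.14, 5.15 and 5.12) by 0.74 ± 0.16 and than in UAS_control (4.79, 4.97 and 5.35) by 0.84 ± 0.16. Or71a, a receptor of the maxillary palp, lay between 4.25 and 5.40, with its lowest group mean in WT_new and its highest in PMdr65. Or82a lay between 3.94 and 5.04, Gr61a, a sugar receptor, between 3.28 and 4.33, Gr9a between 3.89 and 4.42, and Gr32a, a bitter receptor, between 4.20 and 5.30. Obp83g stayed between 5.77 and 6.64, and Obp99a between 4.59 and 7.63 with its highest value on WT_new array 3. Obp22a and Obp93a, the binding proteins near background in all groups, lay between 3.24 and 4.59. Most of these genes lie outside the rule for named genes and were added to complete the account of the members.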

How the data were processed

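Whole-brain RNA was amplified and biotin-labelled with NuGEN kits and hybridised to 17 arrays, per the labels' protocols. The deposited values are log2 probe set signals made by the authors with RMA, and the submitters' processing notes name affy, RMA and limma without versions. The authors deposited an unfiltered table of 18769 probe sets and a series matrix of 13290, whose values differed by at most 0.0050. How the authors chose the 5479 left out of the latter is not stated, and the 75th percentile of their mean signals was used as the background limit. The number of arrays limits the precision.

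The platform annotation gave 1 symbol for 10243 probe sets of the series matrix, more than 1 for 310 and no symbol for 2737, and all 84 members matched current symbols. The rule left out 3 probe sets with several symbols and Obp83ef. A limma model (version 3.58.1, R 4.3.3) estimated a mean per group from the 17 arrays without further normalization (12 residual and 2.93 prior degrees of freedom), in 10 contrasts. P-values were adjusted by Benjamini-Hochberg over all probe sets within a contrast, with a threshold of 0.05. The scripts were tested on simulated data.

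The members and lists were chosen with earlier results of these data known. Named genes were, per family, the 5 of highest mean signal, every member called against all 3 control groups, the 3 largest called changes per contrast and direction, the 8 widest ranges of group means, the measured coreceptors and partners, and up to 3 members on each side of the limit. Alternatives changed the normalization, the filter, the prior, array weights, the groups in the fit, a 2-fold minimum and the background limit, and left out each array.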

Additional observations from a re-analysis of the deposited data

Results flagged for a closer look

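In a test of single arrays standing apart from their group, run on 41 named members in WT_old (the group with 5 arrays), Obp56d met the criterion on WT_old array 4, where its signal was 4.35. The nearest other WT_old array was at 3.97 and the farthest at 3.85, so that the gap made up 0.755 of the range, above Dixon's 95% critical value of 0.71. All 5 values are below the background limit of 4.88. Chance gives such a result in about 1 in 20 tests, and 1 of the 41 members met the criterion, which is no more than chance would give.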

How the results depend on the processing

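Of 177 named gene and comparison pairs called, 116 kept direction and call under every alternative run, and none reversed in 4476 recomputed values; 332 of these lost the call and 4144 kept it. Members called in C17 against all 3 control groups numbered 8, and 3 with the dimmest 40% of probe sets left out, 4 after quantile normalization, 5 with only the groups compared, 5 in the unfiltered table and 1 at a 2-fold minimum. For PMdr65 (4) the count was 1 without the dimmest 40% and 2 at 2-fold. Between the mutants (3) it was 18 with array weights, 13 with only the groups compared, 5 with a trended and robust prior, and 6 without WT_new array 3 and UAS_control array 2, a setting chosen after seeing the data. WT_old minus WT_new (24) gave 7 without the dimmest 40% and 5 at 2-fold. UAS_control minus WT_new (17) gave 10 with array weights, 4 without the dimmest 40%, 6 with only the groups compared and 2 at 2-fold. UAS_control minus WT_old (39) gave 8 and 12 without the dimmest 40% and at 2-fold. Members near background in all groups numbered 29, and 47 with the 90th percentile as limit. The dim filter leaves fewer members to test, and the cause of the other shifts was not tested. Most of these counts have no share of all genes from the same fit beside them. With 1 array left out, the counts ran from 4 to 7 in C17, 3 to 5 in PMdr65, 2 to 5 between the mutants, 20 to 27 and 10 to 21 for WT_old and UAS_control minus WT_new, and 34 to 40 for UAS_control minus WT_old. The replicate block gave 3 members in C17. Same-numbered arrays of different groups correlated in their deviations at -0.474 to 0.405, so the numbers do not pair the arrays. Signals near background limit what the dim receptors can show.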
